A study of Mus musculus with 6 samples.

Results

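The genes described here are the 10 that switch off the photoreceptor light response and feed calcium back onto it: Guca1a, Guca1b, Gucy2e, Gucy2f, Grk1, Rcvrn, Sag, Rgs9, Rgs9bp and Gnb5. They were chosen by name from the 49997 genes of the deposited table, and all 10 were found and passed the filter on low values, as did 20277 genes in all. RNA came from 6 male mouse retinas, 1 retina per library. Of these, 3 carried the genotype label Samd7 knockout (-10A) and were taken at postnatal day 31, and 3 carried the label c57Bl6/j wt and were taken at postnatal day 36, so that genotype and age cannot be told apart. The labels do not give the altered part of Samd7, and they do not state whether each retina came from its own mouse; p-values therefore cover only the spread among the retinas sampled. Each value is a gene's read count divided by a size factor for its library, called normalized reads below. Libraries and retinas that carry the knockout label are called KO.

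Photoreceptors signal light by closing cation channels that cyclic GMP holds open, and recovery has several arms. Rhodopsin kinase phosphorylates the activated pigment and arrestin caps it. A complex of a GTPase-accelerating protein, its long-type G beta subunit and a membrane anchor hastens the return of transducin to its inactive state. As calcium falls in light, guanylate cyclase-activating proteins turn on the membrane cyclases that remake cyclic GMP, while recoverin lets go of rhodopsin kinase.

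Library totals were 44.2 to 53.1 M reads under the KO label and 47.7 to 62.8 M under the wild-type label. Samd7 itself was higher under the Samd7 KO label, at 49508 ± 7225 against 7537 ± 1029 normalized reads (mean ± SD, n = 3 per group), so every direction below is given for the label, not for a proven loss of the gene. Of 10 rod markers, 8 were lower and 1 was higher, and their summed level was 2485764 to 2690218 in the KO libraries and 4199702 to 4597922 in wild type. Of 10 cone markers, 5 were higher and 1 was lower, with summed levels of 679711 to 716944 against 167850 to 174947. The largest parts of that sum were Opn1sw (mean 416374 in KO against 43705 in wild type) and Gnb3 (163123 against 38508). Opn1mw was the lower one, and Gnat2, Arr3, Pde6h and Pde6c were not called. These cone genes were chosen for mention after their values were seen. Of 10 pigment epithelium markers, 7 were lower (1171 to 2306 against 3809 to 6191 summed), and of 10 microglia markers, 8 were higher (6839 to 7577 against 4648 to 5152). The 10 genes are mainly products of photoreceptors, and the part of these shifts in their levels was not tested. In whole retina, fewer cells of a type and less RNA per cell cannot be told apart.

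Promoter windows, 250 bases before to 50 after the annotated start (RefSeq, GRCm38.p6), were available for 7 of the 10 genes. Those of Guca1b, Rcvrn and Rgs9bp were missing from the set of windows used here, although RefSeq gives positions for these genes. Windows are shown because photoreceptor genes are known to be driven by the homeodomain factor Crx and the rod factor Nrl. The 4 printed cover a cyclase pair that differed, a calcium sensor that fell and an arrestin that did not. Capitals mark TAATCC and TAAGCC, words bound by homeodomains of the Crx class, and the outer letters of TGC and GCA held 6 or 7 bases apart, the Maf-type pair bound by Nrl, on either strand.
Guca1a (chr17:47400557-47400856, minus strand): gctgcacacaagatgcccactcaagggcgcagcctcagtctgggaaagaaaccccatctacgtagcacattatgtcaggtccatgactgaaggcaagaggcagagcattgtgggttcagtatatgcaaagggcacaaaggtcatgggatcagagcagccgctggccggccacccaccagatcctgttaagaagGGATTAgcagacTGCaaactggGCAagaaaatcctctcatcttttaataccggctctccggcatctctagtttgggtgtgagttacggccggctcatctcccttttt
Gucy2e (chr11:69236973-69237272, minus strand): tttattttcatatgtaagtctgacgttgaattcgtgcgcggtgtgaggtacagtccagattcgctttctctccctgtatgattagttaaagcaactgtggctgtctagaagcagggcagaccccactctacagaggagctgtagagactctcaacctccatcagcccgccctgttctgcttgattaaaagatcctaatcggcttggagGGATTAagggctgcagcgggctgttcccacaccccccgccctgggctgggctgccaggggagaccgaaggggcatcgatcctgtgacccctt
Gucy2f (chrX:142196887-142197186, minus strand): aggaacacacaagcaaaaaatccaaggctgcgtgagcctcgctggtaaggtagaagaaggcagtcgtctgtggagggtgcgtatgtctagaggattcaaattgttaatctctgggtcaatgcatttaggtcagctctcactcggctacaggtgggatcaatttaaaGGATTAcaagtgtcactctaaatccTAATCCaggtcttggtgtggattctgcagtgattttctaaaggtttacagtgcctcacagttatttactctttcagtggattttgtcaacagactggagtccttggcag
Sag (chr1:87803430-87803729, plus strand): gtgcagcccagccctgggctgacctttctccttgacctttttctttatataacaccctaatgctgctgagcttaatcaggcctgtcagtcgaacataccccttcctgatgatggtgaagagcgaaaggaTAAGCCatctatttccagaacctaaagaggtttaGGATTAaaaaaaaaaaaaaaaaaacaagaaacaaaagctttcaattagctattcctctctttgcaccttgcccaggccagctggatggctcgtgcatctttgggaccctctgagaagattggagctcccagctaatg

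TAATCC, or its reverse complement GGATTA, was present in 5 of the 7 windows, against 7.06% of 32851 promoter windows of the same length. The 32851 windows do not cover every chromosome. It began 57 bases before the start in Guca1a, 42 in Gucy2e, 84 and 59 in Gucy2f, 87 in Sag and 6 in Gnb5. Distances are from the start used for the window. In Guca1a, Gucy2e, Gucy2f and Sag that start lies inside the gene span given below, not at its edge, and furthest inside in Guca1a and Sag. Other starts of these genes were not searched. The windows of Grk1 and Rgs9 held none of the words searched. TAAGCC was found in 1 of 7 windows, that of Sag, against 9.48% of the 32851. The TGC and GCA pair was found in 1 of 7, that of Guca1a, 45 bases before the start, against 15.3% of the 32851. No word overlapped another in these windows. The words were found both in genes that fell and in genes that did not pass the test, and a match is not evidence of binding.

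Of the 10 genes, 5 fell under the Samd7 KO label, 0 rose and 5 did not pass the test. The test was limma-trend on log2(value + 1) with Benjamini-Hochberg adjustment over all 20277 genes and a threshold of 0.05. Over all tested genes 5.21% were called lower and 6.79% higher. At an unadjusted p under 0.05, limma placed 7 of the 10 lower and 1, Sag, higher. Of the 20277 tested genes, 2447 were lower and 2932 higher at that limit. With TMM factors, edgeR called 6 of the 10, with Sag the 1 that rose, and 2494 of all tested genes, 1430 of them higher. Among the 5370 genes that, like these, averaged at least 2000 normalized reads, a limit chosen after the values were seen, 8.60% fell and 8.44% rose. The median log2 fold change of the 10 was -0.37, against 0.00 (0.00178 before rounding) for all tested genes. Groups did not overlap for 7 of the 10, against 31.1% of tested genes. In 6 of these the KO libraries were the lower ones, against 15.2% of tested genes, and in 1, Sag, the higher ones, against 15.9%. The falls were in the cyclase arm (Guca1b, Guca1a and Gucy2f) and in the transducin shut-off complex (Rgs9bp and Gnb5), while none of the 3 genes of pigment shut-off passed.

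**Figure D1:**
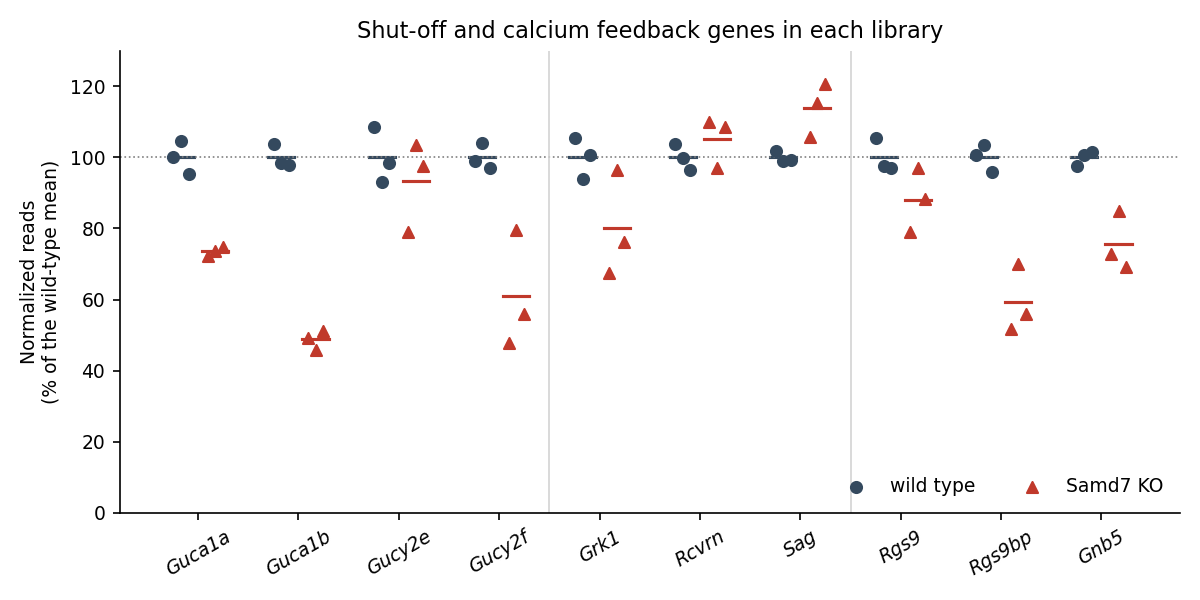
Normalized reads of each gene in each library, as a percent of the wild-type mean of that gene, with a bar at the mean of each group of 3 libraries (circles wild type, triangles Samd7 KO). The KO libraries lie lowest for Guca1b, around 48.8% on average, and above wild type for Sag, at 114%.

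The calcium sensors of the cyclases fell by unequal amounts. Guca1b encodes GCAP2, a sensor found mainly in rods in mouse (chromosome 17, 47384694 to 47392967, GRCm38.p6). It had 96478, 89805 and 100351 normalized reads in KO libraries 1, 2 and 3, and 202960, 192808 and 191276 in wild type 1, 2 and 3. Every KO library lay far below every wild-type library, and the mean was 2.05-fold lower (95545 ± 5335 against 195681 ± 6350, mean ± SD, n = 3 per group, limma adjusted p = 2.48e-07, log2 fold change -1.04 with SE 0.06). Its neighbour Guca1a encodes GCAP1, a sensor of rods and cones (chromosome 17, 47394557 to 47413514). It had 85209, 86787 and 88024 normalized reads in the KO libraries and 117896, 123352 and 112429 in wild type. The KO libraries were close to each other and all below wild type, 1.36-fold lower on average (limma adjusted p = 2.43e-04, log2 fold change -0.44 with SE 0.06).

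The balance between both sensors, a ratio within each library that does not depend on library scaling, also differed between groups. The ratio of Guca1a to Guca1b reads was 0.883, 0.966 and 0.877 in the KO libraries and 0.581, 0.640 and 0.588 in wild type. The groups did not overlap and differed by 1.51-fold (0.909 ± 0.0499 against 0.603 ± 0.0322, mean ± SD, n = 3 per group, exact permutation test, two-sided, p = 0.1). That p is the smallest that 3 against 3 libraries can give. After adjustment over the 19 ratios computed, it became 0.127 for this and every other ratio at that floor, so no ratio passed the threshold of 0.05.

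The membrane cyclases that these sensors regulate also differed from each other. Gucy2f encodes GC2, mainly a rod enzyme (chromosome X, 142079286 to 142197276). Its normalized reads were 1590, 2641 and 1859 in the KO libraries and 3290, 3459 and 3224 in wild type. All KO libraries lay below wild type, with KO 2 nearest to it, and the mean was 1.64-fold lower (limma adjusted p = 0.00612, log2 fold change -0.74 with SE 0.15). Gucy2e encodes GC1, the cyclase of rods and cones (chromosome 11, 69218117 to 69237279). It had 12864, 16830 and 15890 normalized reads against 17651, 15153 and 16011 in wild type. These ranges overlapped and the test did not pass (limma adjusted p = 0.537, log2 fold change -0.11 with a 95% interval of -0.32 to 0.11). The ratio of Gucy2f to Gucy2e was 0.124, 0.157 and 0.117 in the KO libraries and 0.186, 0.228 and 0.201 in wild type. The KO label was lower in every pairing of libraries (exact permutation test, two-sided, p = 0.1, the smallest possible).

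Sensor reads per cyclase read were lower as well. For every Gucy2e read there were 7.50, 5.34 and 6.32 Guca1b reads in the KO libraries, against 11.5, 12.7 and 11.9 in wild type, groups that did not overlap. The ratio of Guca1a to Gucy2e was 6.62, 5.16 and 5.54 against 6.68, 8.14 and 7.02. Here KO 1 and wild type 1 nearly met. Transcripts of both sensors are much shorter than that of Gucy2e, and the trend with transcript length described below was not removed from these ratios. With that trend removed from single genes, the log2 fold changes of Gucy2e and Guca1a were nearer to each other (-0.23 and -0.36, against -0.11 and -0.44). That of Guca1b was -0.97, against -1.04.

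**Figure D2:**
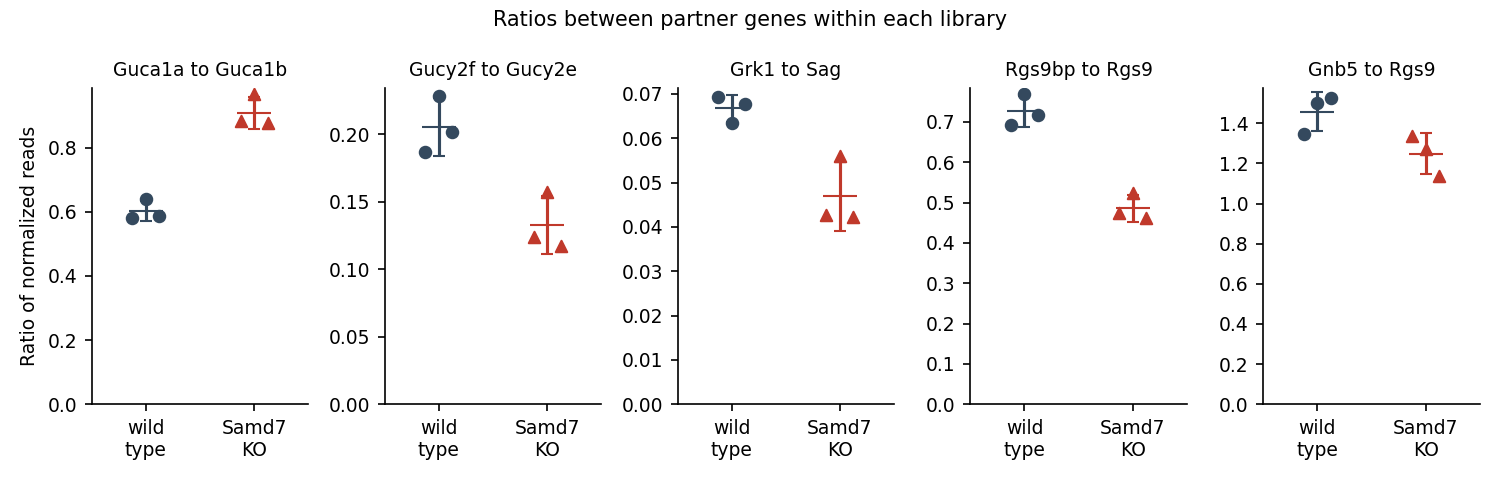
Ratio of normalized reads between partner genes in each library, with the mean and SD of 3 libraries per group (circles wild type, triangles Samd7 KO); each axis starts at 0. The ratio of Guca1a to Guca1b is higher under the KO label, and the other 4 ratios are lower, with no overlap between groups.

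None of the 3 genes that shut off the pigment passed the test. Sag encodes the arrestin that caps phosphorylated pigment (chromosome 1, 87798143 to 87845158). Its normalized reads were 528408, 576090 and 601726 in the KO libraries and 508181, 493618 and 496183 in wild type. The KO libraries all lay above wild type (limma adjusted p = 0.0575, log2 fold change 0.19 with a 95% interval of 0.06 to 0.31). The outcome for Sag depended on the method. It was past the threshold by edgeR with TMM factors (adjusted p = 0.0337) but not by DESeq2 on the same reads (adjusted p = 0.122). With the transcript-length trend removed the log2 fold change was 0.11 (limma adjusted p = 0.223). That removal used the longest annotated transcript, for Sag a retained-intron form of 4727 bases. Sag was thus handled as longer than its coding form of 1719 bases, and removal with the coding length was not tested. The ratio of Sag to the cone arrestin Arr3 overlapped between groups, at 22.1 ± 5.44 against 18.5 ± 1.54 (mean ± SD, n = 3 per group, exact permutation p = 0.5). Rcvrn encodes recoverin, the calcium sensor that holds rhodopsin kinase in the dark (chromosome 11, 67695326 to 67703355). It had 128334, 113103 and 126806 normalized reads against 121015, 116485 and 112771, ranges that overlapped (limma adjusted p = 0.517, log2 fold change 0.07 with a 95% interval of -0.07 to 0.21). Glp2r overlaps Rcvrn on the opposite strand, and its reads were at most 3.46% of those of Rcvrn in any library.

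Grk1 encodes rhodopsin kinase, which in mouse serves rods and cones (chromosome 8, 13405081 to 13421951). It had 22508, 32200 and 25460 normalized reads in the KO libraries and 35208, 31311 and 33552 in wild type. KO 2 lay inside the wild-type range and the other two lay below it (limma adjusted p = 0.0677, log2 fold change -0.33 with a 95% interval of -0.57 to -0.10). Without KO 2 the log2 fold change was -0.48 and passed the test (limma adjusted p = 0.00204). With any other library left out it did not pass (limma adjusted p from 0.105 to 0.189), and without KO 1 it was -0.22. The authors' deposited table, from DESeq2, lists Grk1 at an adjusted p of 0.0486. The ratio of Grk1 to Sag was 0.0426, 0.0559 and 0.0423 against 0.0693, 0.0634 and 0.0676, lower in each KO library than in any wild-type library (exact permutation test, two-sided, p = 0.1, the smallest possible). Rcvrn reads per Grk1 read overlapped between groups, at 4.73 ± 1.12 against 3.51 ± 0.189 (mean ± SD, n = 3 per group, exact permutation p = 0.2).

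In the transducin shut-off complex the anchor stood further below wild type than the catalytic subunit. Rgs9bp, also called R9AP, tethers the complex to the disc membrane and stabilizes it (chromosome 7, 35578993 to 35585582). Its normalized reads were 11724, 15863 and 12716 in the KO libraries and 22878, 23459 and 21764 in wild type. The groups did not overlap and the mean was 1.69-fold lower (limma adjusted p = 2.55e-04, log2 fold change -0.77 with SE 0.10). Gnb5, the G beta subunit bound by Rgs9 and its relatives and used also by bipolar cells (chromosome 9, 75306288 to 75345923), had 33087, 38595 and 31432 against 44418, 45887 and 46277. It too was lower in every KO library, 1.32-fold on average (limma adjusted p = 0.00364, log2 fold change -0.41 with SE 0.08).

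The test did not call Rgs9, the GTPase-accelerating protein itself (chromosome 11, 109225348 to 109298181). It had 24778, 30338 and 27602 normalized reads in the KO libraries and 33024, 30531 and 30373 in wild type, with KO 2 just under the lowest wild-type library (limma adjusted p = 0.145, log2 fold change -0.19 with a 95% interval of -0.36 to -0.02). Without KO 2 it passed (log2 fold change -0.26, limma adjusted p = 0.0382). With any other library left out it did not (limma adjusted p from 0.239 to 0.335), and without KO 1 the log2 fold change was -0.11. The ratio of Rgs9bp to Rgs9 was 0.473, 0.523 and 0.461 against 0.693, 0.768 and 0.717, lower under the KO label by more than the spread between libraries. The ratio of Gnb5 to Rgs9 was 1.34, 1.27 and 1.14 against 1.35, 1.503 and 1.52, with groups that did not overlap but nearly met.

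**Figure D3:**
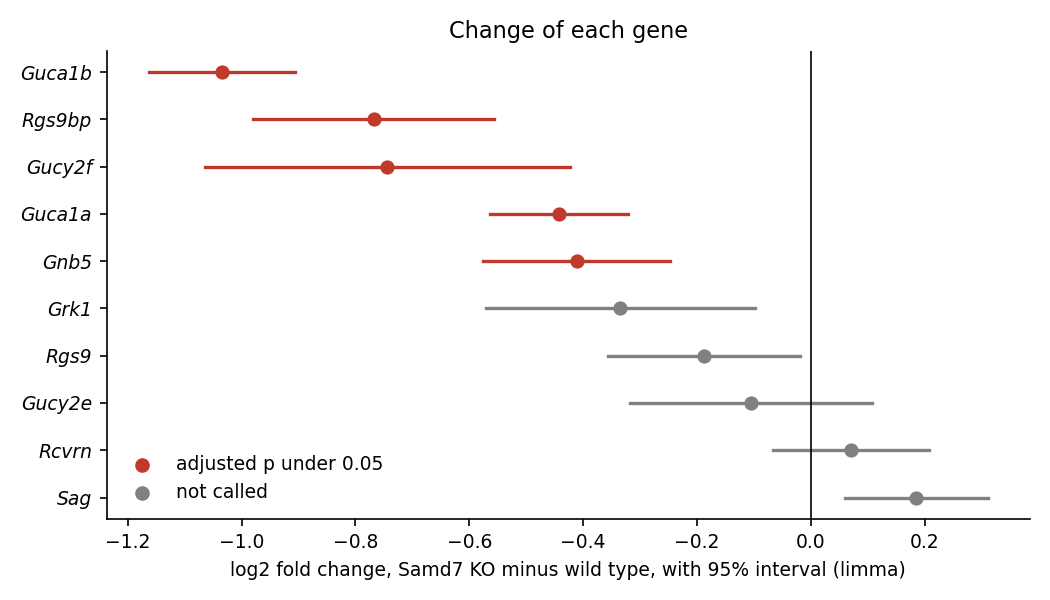
Log2 fold change of each gene, KO minus wild type, with its 95% interval from limma; red genes had an adjusted p under 0.05. Guca1b has the lowest value, -1.04, and Sag the highest, 0.19.

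The genes were also set against Gnat1, the rod transducin alpha subunit, whose shut-off the Rgs9 complex hastens. Gnat1 itself had 796016 ± 33658 normalized reads in the KO libraries and 1435230 ± 93969 in wild type (mean ± SD, n = 3 per group, limma adjusted p = 1.62e-06). Because of that fall, a gene with no change has 1.80-fold more reads per Gnat1 read under the KO label, and 84.0% of the 20276 other tested genes had a higher ratio with groups that did not overlap, against 0.587% with a lower one. Of the 10 genes 7 were in the first class and Guca1b in the second. The 7 are thus near the share over all genes and do not show that these genes rose. On average, Sag and Rcvrn lay above the value for no change and 8 below it. Gnat1 cancels in that comparison, which repeats the direction of each gene's own change and adds no further result. Of the 20277 tested genes 10086 had a log2 fold change below 0 and 10191 above 0. Gnat1 was taken as the reference for all 10 genes after its values were seen. Sag reads per Gnat1 read were 0.685, 0.736 and 0.721 in the KO libraries and 0.330, 0.352 and 0.364 in wild type, 2.05-fold higher. Rcvrn per Gnat1 was 1.89-fold higher, Gucy2e 1.67-fold, Rgs9 1.58-fold, Grk1 1.43-fold, Gnb5 1.36-fold and Guca1a 1.33-fold, each with groups that did not overlap (exact permutation test, two-sided, p = 0.1 for each, the smallest possible). Gucy2f and Rgs9bp overlapped between groups, at 1.08-fold (exact permutation p = 0.9) and 1.06-fold (exact permutation p = 0.8). Guca1b had fewer reads per Gnat1 read, 0.125, 0.115 and 0.1203 against 0.132, 0.138 and 0.140.

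**Figure D4:**
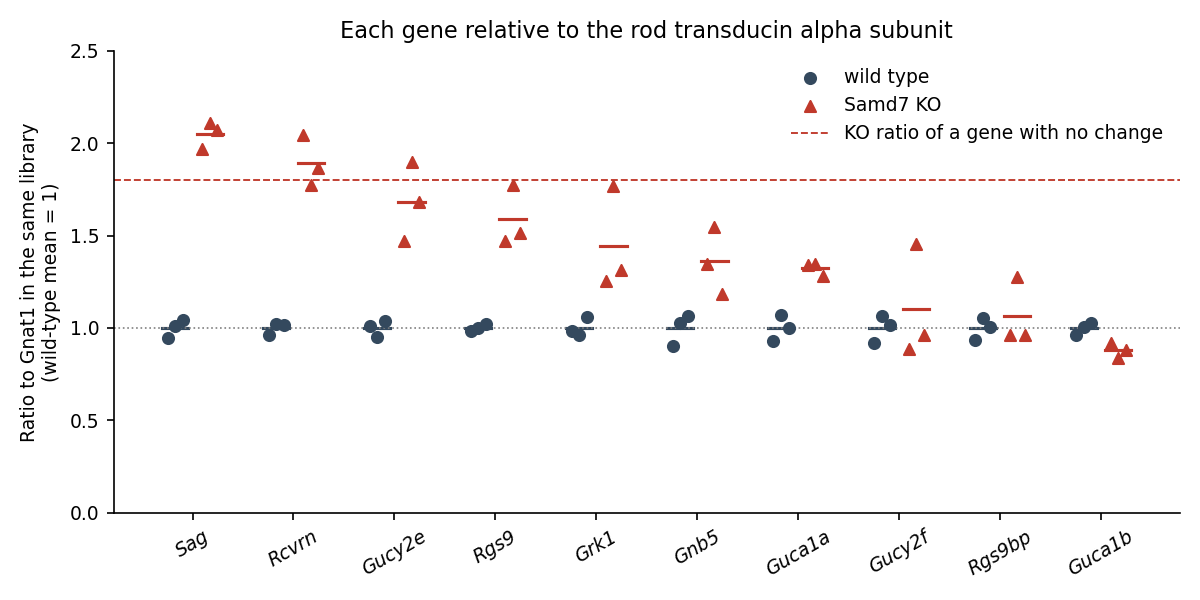
Reads of each gene per Gnat1 read in the same library, divided by the wild-type mean, with a bar at the mean of each group of 3 libraries (circles wild type, triangles Samd7 KO). The dashed line at 1.80 is where the KO mean of a gene with no change would lie, since Gnat1 fell; the KO means of Sag and Rcvrn lie above that line and those of the other 8 genes below it, with Guca1b also below wild type.

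Rod and cone genes of the activating cascade that these genes act on differed in direction. Of 10 rod genes of the activating cascade, 8 fell and 0 rose, with a median log2 fold change of -0.57. Of 10 cone genes, 5 rose and 1 fell, with a median of 1.17. The 10 shut-off and feedback genes lay nearer to the rod list in median (-0.37) and had no gene that rose. Of 23 listed partners of the shut-off and feedback steps, 4 fell and 1 rose, with a median of -0.04. Unc119, a carrier of acylated transducin, was 1.29-fold lower (180438 ± 6030 against 232642 ± 4015 normalized reads, mean ± SD, n = 3 per group, limma adjusted p = 5.85e-04). Impdh1, an enzyme of GTP supply, was 1.20-fold lower (limma adjusted p = 0.0173), and Calm3, a calmodulin gene, 1.17-fold lower (limma adjusted p = 0.0336). Pdc, phosducin, which binds transducin beta-gamma, also fell, and Aipl1, a chaperone for the phosphodiesterase, rose; both were chosen for mention after their values were seen.

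Among relatives of these genes, 0 of 3 other arrestins were called by limma (adjusted p from 0.5004 for Arrb2 to 0.859 for the cone arrestin Arr3), and 0 of 5 other receptor kinases (lowest adjusted p = 0.172, for Grk5). At an unadjusted p under 0.05 these counts were 0 and 1, and edgeR with TMM factors called 0 and 0. Of 6 genes of the wider R7 RGS complex 0 passed by limma, 1 at an unadjusted p under 0.05, and 0 by edgeR with TMM factors. Among them Rgs7, which pairs with Gnb5 in ON bipolar cells, had 2899, 2881 and 2925 normalized reads against 2969, 3341 and 3085 (limma adjusted p = 0.408, log2 fold change -0.11 with a 95% interval of -0.28 to 0.06). Rgs11, the other bipolar partner, had 7300, 4276 and 6386 against 5874, 5868 and 5891, so that the KO libraries lay on both sides of wild type (log2 fold change -0.01, 95% interval -0.34 to 0.32). Both were chosen after their values were seen. Of 10 other neuronal calcium sensors 1 rose, Hpcal1 (1.20-fold, limma adjusted p = 0.0401), and of 6 other guanylate cyclase genes tested 0 were called by limma (2 at an unadjusted p under 0.05, and 0 by edgeR with TMM factors). Of 5 other G beta genes 2 rose, Gnb3 of cone transducin and the widely expressed Gnb2, and 1 fell, Gnb1 of rod transducin. Of 10 bipolar cell markers 1 fell, Pcp2 (limma adjusted p = 0.0481, and 0 of the 10 with edgeR and TMM factors), and of 10 amacrine and ganglion cell markers 0 were called by limma (1 at an unadjusted p under 0.05, and 0 by edgeR with TMM factors).

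Levels were compared between genes only as normalized reads per kilobase of the longest protein-coding GENCODE transcript. In wild type the order was Sag (290476), Guca1a (135042), Guca1b (117315), Rcvrn (112266), Gnb5 (21628), Rgs9 (9039), Grk1 (4489), Rgs9bp (3445), Gucy2e (1953) and Gucy2f (409). In wild type Guca1b and Rcvrn overlapped between libraries (114674 to 121679 and 108434 to 116361 reads per kilobase), and every other pair of neighbours was separated. In the KO libraries, Sag (330856) was again first and Rcvrn (118026) came before Guca1a (99282) and Guca1b (57281), while the lower 6 kept their order. There Rgs9bp and Gucy2e overlapped (1779 to 2407 and 1544 to 2020). The longest annotated Sag transcript, at 4727 bases, is a retained-intron form; with it in place of the 1719-base coding form, Sag held rank 4 in wild type, at 105633.

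Guca1b had the smallest adjusted p, and its pattern over the 6 libraries was compared with that of 7864 other tested genes that average at least 1000 normalized reads. The 5 with the highest Pearson correlation of log2 values were Slc25a5, Tcp11, Fscn2, Gpx4 and Gigyf2 (r from 0.998 to 0.999, a description over 6 libraries that share the difference between groups). Fscn2, a photoreceptor actin-bundling protein, was 2.38-fold lower, at 12495 ± 854 against 29682 ± 706 normalized reads (mean ± SD, n = 3 per group). Tcp11 was 5.41-fold lower, Gpx4, an enzyme that reduces lipid peroxides, 1.34-fold, Gigyf2 1.35-fold and Slc25a5, a mitochondrial ADP/ATP carrier, 1.20-fold.

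Some of the spread between the KO libraries went with transcript length. The 4 genes here with transcripts over 6000 bases, Gucy2e, Gucy2f, Grk1 and Rgs9bp, were lowest in KO 1 (78.3% to 87.3% of their group mean) and highest in KO 2 (111% to 130%). Over the 2175 tested genes with transcripts of at least 6000 bases, the median deviation from the group mean was -0.13 in KO 1 and 0.14 in KO 2 on the log2 scale, against 0.08 and -0.07 for the 5843 genes under 2000 bases. With each library's trend with transcript length removed, an alternative added after seeing the data, 7 of the 10 genes fell: the same 5, Grk1 (log2 fold change -0.45, limma adjusted p = 8.93e-04) and Gucy2e (-0.23, limma adjusted p = 0.0362).

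**Figure D5:**
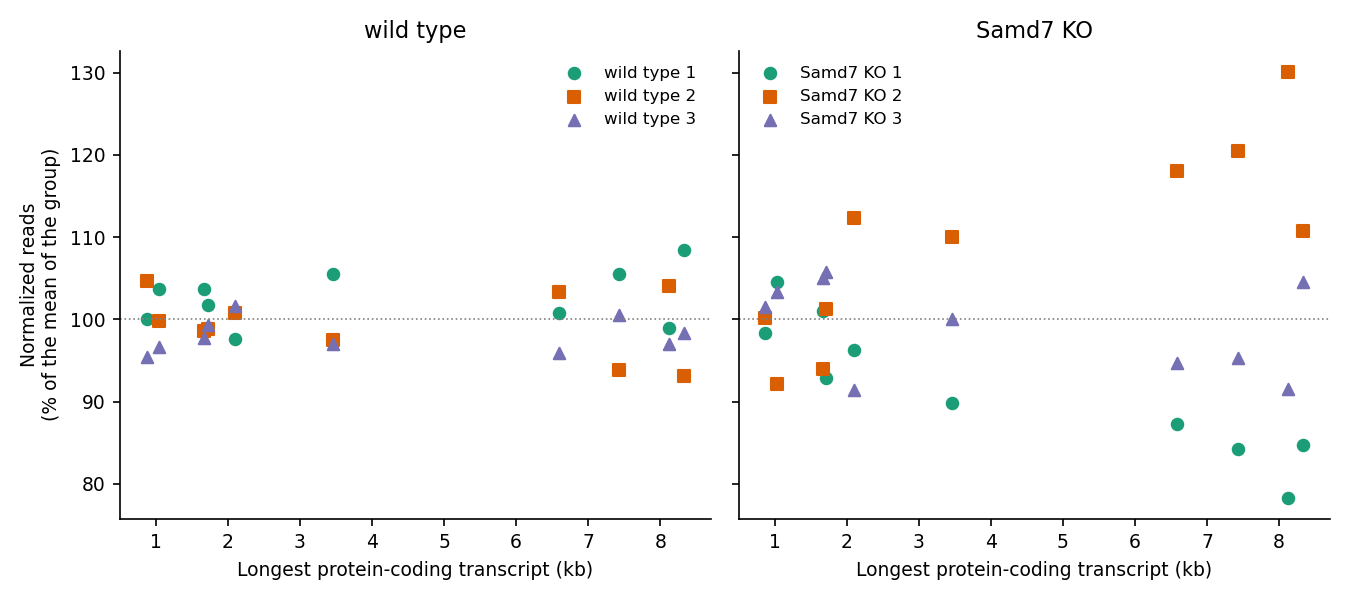
Normalized reads of each of the 10 genes in each library, as a percent of the mean of its group, against the length of the longest protein-coding transcript in kilobases; wild type left, Samd7 KO right. In the right panel KO 2 lies above and KO 1 below the mean for the 4 transcripts over 6 kb.

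The authors' deposited table, from DESeq2, lists 6 of the 10 genes as lower in its test of no change (threshold 0.05), the 5 above and Grk1, and 0 higher. The share of all genes it lists in each direction was not computed here. DESeq2 run here on the whole reads called 5 of the 10 lower and 0 higher. It called 2883 of 20277 tested genes in either direction. In the authors' deposited table the log2 fold changes run from -1.03 for Guca1b to 0.19 for Sag, and 0 of the 10 passed its test against a log2 fold change of 1. Both analyses use the same libraries.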

How the data were processed

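Polyadenylated RNA of 6 retinas was reverse-transcribed with an ultra-low-input kit and the cDNA amplified for 15 cycles, per the labels' protocols. Per the submitters' processing notes the tools include cutadapt 3.0, STAR 2.7.3a, HTSeq 0.12.4, SAMtools 1.9, DRAGEN and DESeq2, and the genome builds GRCm38 and mm10. The sources used here give neither the step each tool served nor the strand handling of the counting. The deposited signal of a library is a read count per gene that the authors divided by that library's size factor. The authors also deposited a DESeq2 log2 fold change with standard error, a Wald score and p-values, raw and adjusted, per the file headers.

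Division by the worth of 1 read gave whole reads within 0.01 for 100% of 166478 values above 0. Because the values are normalized, genes were tested with limma-trend on log2(value + 1), keeping genes with at least 10 in at least 3 libraries; count tests on the recovered reads (edgeR with TMM factors called 2494 of 20277 genes) were alternatives. Fold changes are ratios of group means, and log2 fold changes are on the log2(value + 1) scale. Ratios between genes used exact permutation tests. Intervals of 95% come from limma. The tests were checked on simulated counts. Software was DESeq2 1.42.0, edgeR 4.0.16 and limma 3.58.1 under R 4.3.3. RefSeq positions and promoters (GRCm38.p6) and GENCODE M21 lengths (GRCm38) share the submitters' build.

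The 10 genes, the lists and the tests were chosen with earlier results of these data known. Named besides the 10 are Samd7, up to 3 genes per list with the smallest adjusted p, 5 genes most like Guca1b, Gnat1 as a reference, and genes said to be chosen later. Ratios to 1 further gene, set at the start for 3 of the 10 genes, were not computed, and ratios to Gnat1 were added in their place after seeing the data. Alternatives were edgeR, DESeq2, total-count scaling, other pseudocounts and filters, a replicate block, each library left out, and removal of the transcript-length trend (added after seeing the data). No protein sequence was used here.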

Additional observations from a re-analysis of the deposited data

How the results depend on the processing

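The same 5 genes (Guca1a, Guca1b, Gucy2f, Rgs9bp and Gnb5) stayed lower and past the threshold in all 16 alternatives, and the number that fell was 5 to 7. It was 7 without KO 2 and with the transcript-length trend removed, where 2009 and 2703 of all tested genes were called in either direction. The number that rose, 0, became 1 (Sag) with edgeR and TMM factors, with edgeR and RLE factors, with total-count scaling and without KO 1 (0 to 1 over the libraries left out). The count of all tested genes called, 2432, ranged from 1297 (without wild type 3) to 3214 (without KO 1) over the libraries left out, with 1453 without KO 3 and 1452 without wild type 2; the cause was not tested. Of the 160 single-gene values, 8 crossed to past the threshold and 1 turned direction: Gucy2e, with a log2 fold change of 0.0101 without KO 1. The 10 ratios set at the start kept their direction and moved by less than 1 SD in all 70 alternatives. Leaving out 1 of 3 libraries cannot move a ratio by that SD, so for libraries left out the second part had to hold. The log2 difference of Sag to Arr3 ran from 0.0626 (without KO 2) to 0.428 (without KO 1), against 0.230 with all libraries. Removal of the transcript-length trend was not applied to ratios. Same-numbered libraries did not deviate together (correlations -0.18, -0.13 and -0.01, against -0.0524 to 0.185 between differently numbered ones). The values thus gave no sign of pairing by number, but they cannot show whether libraries were paired when collected or prepared. A replicate block gave 1624 genes called against 2432, with 5 of the 10 genes lower and 0 higher.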
